A study of Mus musculus with 8 samples.

Results

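The miRNAs described here are the products of the neuronal miR-128, miR-129, miR-137 and miR-153 genes in the mouse hippocampus. The members were taken by name from the table of deposited counts, where they stand as mmu-miR-128-3p, mmu-miR-129-5p, mmu-miR-129-1-3p, mmu-miR-129-2-3p, mmu-miR-137-3p and mmu-miR-153-3p (mmu marks the mouse and is left out from here on). All 6 were among the 422 miRNAs of the table, with between 190 and 141079 counts per library, so none was lost to a filter. Hippocampal small RNA libraries came from 4 B6 mice (genotype label C57BL/6J) and 4 BTBR mice (genotype label BTBR T+ Itpr3tf/J), adult males of 12 weeks, with 1 library per mouse. B6 mice were the controls. BTBR mice, an inbred line used to study autism without a single known cause, were the strain of interest. BTBR differs from B6 across its whole genome, so a strain difference cannot be assigned to a single allele. The libraries held between 5078301 and 5792967 counts in B6 and between 2247482 (replicate 2) and 7904990 (replicate 4) in BTBR mice. Levels are given as CPM, counts scaled to a common library total, after TMM normalization, which adjusts the totals on the premise that most miRNAs do not differ between libraries.

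A mature miRNA is cut from a hairpin precursor, and either arm, 5p or 3p, can be loaded into Argonaute. The loaded strand finds its target mRNAs mainly through its seed, bases 2 to 8, and lowers their stability and translation. miR-128 is one of the most abundant brain miRNAs and restrains neuronal excitability. miR-129-5p represses the potassium channel Kv1.1 and takes part in the downscaling of synapses after raised activity. miR-137 controls neuronal maturation and synaptic vesicle release, and its gene is a risk locus for schizophrenia and intellectual disability. miR-153 represses proteins of vesicle release, among them SNAP-25 and alpha-synuclein.

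The mature sequences below are RefSeq entries (GRCm38.p6), written 5′ to 3′ with the seed in capitals. They are shown because the seed sets which mRNAs each product can recognise, and because the arms of a hairpin are compared below.
miR-128-3p: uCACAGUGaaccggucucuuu
miR-129-5p: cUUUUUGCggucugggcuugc
miR-129-2-3p: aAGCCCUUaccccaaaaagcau
miR-137-3p: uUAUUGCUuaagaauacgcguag
miR-153-3p: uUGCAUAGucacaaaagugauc
miR-129-1-3p was not matched in the RefSeq table. The 5 sequences have 5 different seeds, so these miRNAs do not form a seed family, and both arms of miR-129 carry different seeds although they come from the same hairpin. Among the 367 of the 422 miRNAs with a sequence, none shared a whole seed with any of these 5 members. miR-448-3p shares bases 2 to 7 with miR-153-3p, and the seeds of miR-27a-3p and miR-27b-3p hold bases 2 to 7 of miR-128-3p shifted by 1 position.
miR-448-3p: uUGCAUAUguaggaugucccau
miR-27a-3p: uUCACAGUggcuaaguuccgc
miR-27b-3p: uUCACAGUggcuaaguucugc

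The members come from 6 hairpins on 6 chromosomes of GRCm38. miR-128-3p is made from a pair of hairpins, Mir128-1 on chromosome 1 from 128202361 to 128202430 in an intron of R3hdm1, and Mir128-2 on chromosome 9 from 112118636 to 112118711 in an intron of Arpp21, which encodes a cAMP-regulated phosphoprotein. miR-129-5p has the same sequence in Mir129-1, on chromosome 6 from 29022619 to 29022691 in an exon of the lincRNA Gm3294, and in Mir129-2, on chromosome 2 from 94241364 to 94241453 in an intron of the lincRNA Mir670hg. Another hairpin, Mir129b, lies on the opposite strand at Mir129-2, and its products were not analysed here. Mir137 lies on chromosome 3 from 118433857 to 118433929 in an exon of the processed transcript Gm26871. Mir153 lies on chromosome 12 from 117250817 to 117250885 in an intron of Ptprn2, a gene for a membrane protein of secretory vesicles, and in an intron of Gm5441 on the other strand. Since miR-128-3p and miR-129-5p can each come from either of their hairpins, their counts alone do not tell the hairpins apart.

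The 6 products covered a wide range of abundance. Reads from small RNA libraries cover the whole mature miRNA of 21 to 23 nt, so CPM was compared between members without a length correction. The order given here is one of read counts, because how evenly different sequences were captured in the libraries was not tested. miR-128-3p was the most abundant, ranking between 9 and 13 of the 422 miRNAs in each library, with a mean of 18865 CPM over the 8 mice. Its lowest library, at 14882 CPM, was above the highest miR-129-5p library, at 2207 CPM. miR-129-5p (mean 1738 CPM), miR-153-3p (1088 CPM), miR-129-2-3p (678 CPM) and miR-137-3p (292 CPM) followed. miR-129-5p was above miR-153-3p in 7 of the 8 libraries and miR-153-3p above miR-129-2-3p in 7 of 8, and the ranges of these neighbours overlapped. miR-129-2-3p exceeded miR-137-3p within every library, although their ranges also overlapped across libraries. miR-129-1-3p was the least abundant, with a mean of 90.7 CPM, and its highest library (162 CPM) was below the lowest miR-137-3p library (208 CPM).

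**Figure D1:**
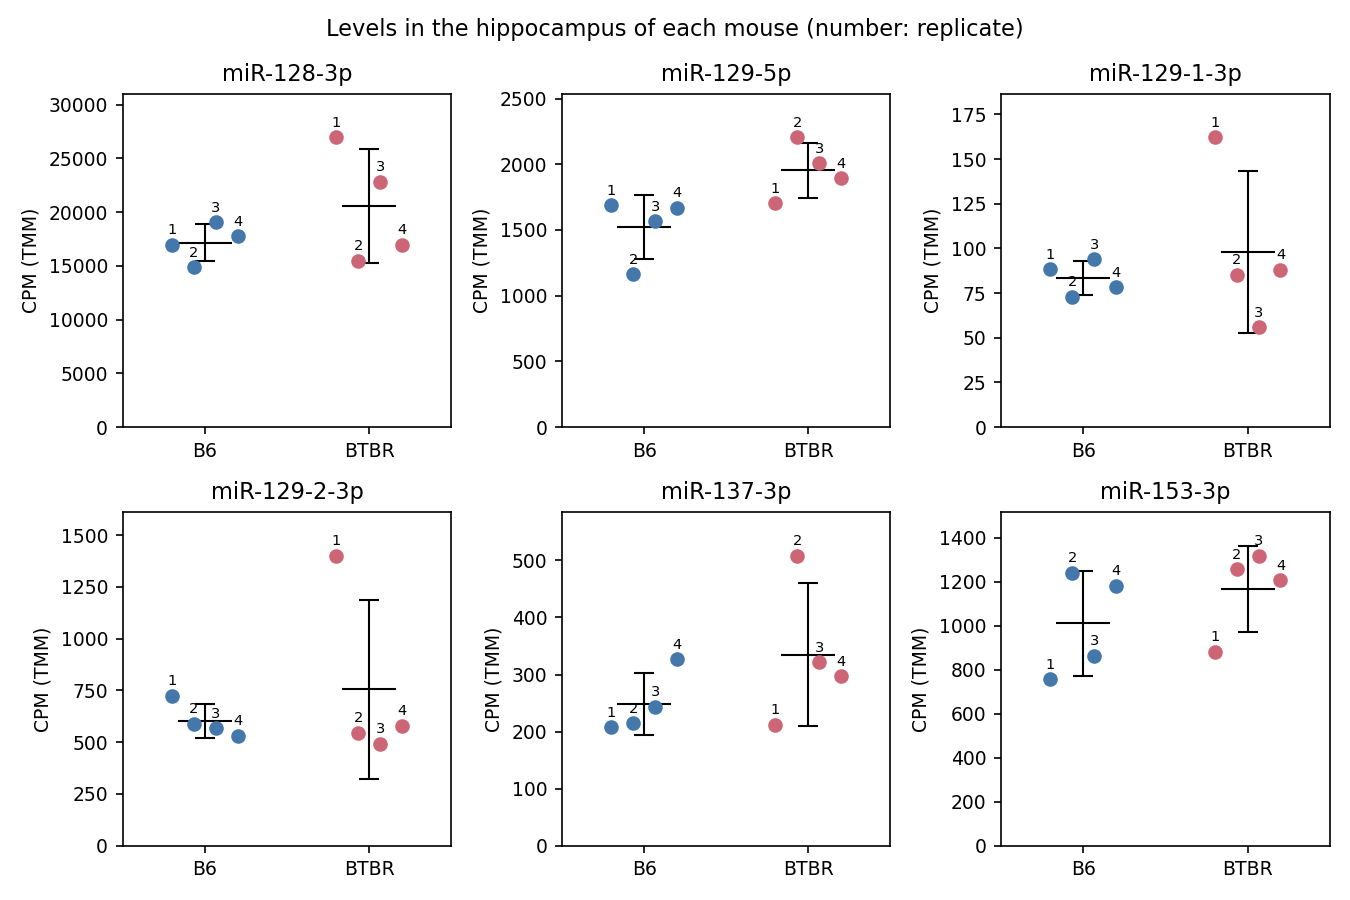
Level of each miRNA in each mouse, in CPM after TMM scaling on a linear axis from 0, for 4 B6 (blue) and 4 BTBR (red) mice numbered by replicate; black bars are the mean ± SD. The strains overlap in every panel except miR-129-5p, and BTBR replicate 1 stands above all other mice for miR-129-2-3p (1401 CPM) and miR-129-1-3p (162 CPM).

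Whether the strains differ in these miRNAs was asked with the quasi-likelihood test of edgeR, fitted over all 422 miRNAs, with Benjamini-Hochberg adjustment and a threshold of 0.1. None of the 6 members passed, in a comparison where 7 of the 422 miRNAs (1.66%) did, 5 of them higher in BTBR mice (1.18%) and 2 lower (0.474%), and none had an unadjusted p under 0.05, against 10.9% of all miRNAs. All 6 fitted log2 fold changes of BTBR over B6 lay above 0, between 0.21 and 0.43, with a median of 0.29, whereas 50.9% of all miRNAs lay above 0 and their median was 0.02. Both miR-129 3p products were below 0 when BTBR replicate 1 was left out. The adjusted p of the members lay between 0.521 and 0.80 in edgeR. Missing the threshold does not show equal levels, so the intervals are given with each member. For 4 of the 6 the whole 95% interval lay within a 2-fold change either way, as it did for 45% of all miRNAs. Bulk tissue punched from the hippocampus was sequenced, so that a change in the number of neurons and a change in the level per neuron cannot be told apart.

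miR-129-5p, the product that acts on Kv1.1, was the member with the smallest p. The B6 mice had 1687, 1166, 1567 and 1669 CPM in replicates 1 to 4, and the BTBR mice 1703, 2207, 2008 and 1894 CPM. Every BTBR mouse was thus above every B6 mouse, but the highest B6 and the lowest BTBR library lay close together. Strains that do not overlap were found in 6.64% of all miRNAs, and miR-129-5p was 1 of 6 here. B6 averaged 1522 ± 243 CPM and BTBR 1953 ± 211 CPM (SD, n = 4 each), and the log2 fold change was 0.36 (standard error 0.19, 95% interval −0.05 to 0.77, adjusted p = 0.521, edgeR, Benjamini-Hochberg). Mouse by mouse, a two-sided exact permutation test of log2(CPM + 0.5) gave p = 0.0286, the smallest value that 4 against 4 mice allow, without adjustment for the 6 members tested this way. With counts scaled by library size only, the gap between the strains was wider, with at most 1517 CPM in B6 and at least 1766 CPM in BTBR mice. The log2 fold change was then 0.53 (adjusted p = 0.215, edgeR, Benjamini-Hochberg), while the median log2 difference of all miRNAs moved from −0.03 to 0.12.

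The 3p products of the same hairpins had another pattern. For miR-129-2-3p the B6 mice had 723, 588, 566 and 531 CPM, and the BTBR mice 1401, 545, 493 and 578 CPM. BTBR replicate 1 alone was above every B6 mouse, and the other BTBR mice lay within or below the B6 range. B6 averaged 602 ± 84.2 CPM and BTBR 754 ± 433 CPM, and the log2 fold change was 0.33 (standard error 0.32, 95% interval −0.37 to 1.02, adjusted p = 0.731, edgeR, Benjamini-Hochberg). Without BTBR replicate 1 it was −0.16. miR-129-1-3p, from the hairpin on chromosome 6, stood at 88.3, 72.9, 94.0 and 78.2 CPM in the controls, against 162, 85.3, 56.1 and 88.1 CPM in BTBR. Here too BTBR replicate 1 was the highest of the 8, and BTBR replicate 3 was the lowest. Its log2 fold change was 0.23 (standard error 0.30, 95% interval −0.43 to 0.90, adjusted p = 0.80, edgeR, Benjamini-Hochberg) and −0.12 without BTBR replicate 1. The direction of both 3p products therefore rested on that mouse. Mouse by mouse, the exact permutation test gave p = 0.857 for miR-129-2-3p and p = 0.743 for miR-129-1-3p.

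Ratios between products within a library do not depend on how the libraries are scaled. miR-129-5p was counted 2.33, 1.98, 2.77 and 3.15 times as often as miR-129-2-3p in B6 replicates 1 to 4, and 1.22, 4.05, 4.07 and 3.27 times as often in the BTBR mice. BTBR replicates 2, 3 and 4 lay above all B6 mice and BTBR replicate 1 below all of them, so the strains overlapped (exact permutation test on log2 ratios, p = 0.743, and 0.867 adjusted over 7 ratios). The mean log2 difference was 0.18. It was 0.59 without BTBR replicate 1 (exact permutation p = 0.0571, the smallest that 4 against 3 mice allow), 0.0071 without BTBR replicate 2 and 0.0043 without BTBR replicate 3 (exact permutation p = 1 for both). The spread of this log2 ratio was 0.29 (SD, n = 4) in B6 and 0.83 in BTBR mice. The ratio of both 3p products to each other had a similar spread in both strains, with miR-129-2-3p between 6.02 and 8.19 times miR-129-1-3p in B6 and between 6.39 and 8.79 times in BTBR mice (SD of the log2 ratio 0.21 and 0.25). Their mean log2 ratio differed by 0.06 between the strains (exact permutation test, p = 0.600, and 0.867 adjusted over 7 ratios). In BTBR replicate 1, both 3p products were thus high together while miR-129-5p was the lowest of its strain. How reads that match more than 1 name were divided is not given in the sources used here, so the separate levels of both 3p products and the ratio between them are uncertain. miR-129-5p was counted 19.1, 16.0, 16.7 and 21.3 times as often as miR-129-1-3p in B6 and 10.5, 25.9, 35.8 and 21.5 times as often in BTBR mice (SD of the log2 ratio 0.19 and 0.75). In B6 the 3 ratios thus had SDs between 0.19 and 0.29, and in BTBR mice the ratio of the 3p products had the smallest SD. As with the other 3p product, BTBR replicate 1 had the lowest ratio of all 8 libraries and replicates 2, 3 and 4 the highest (exact permutation test, p = 0.543, and 0.867 adjusted over 7 ratios).

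**Figure D2:**
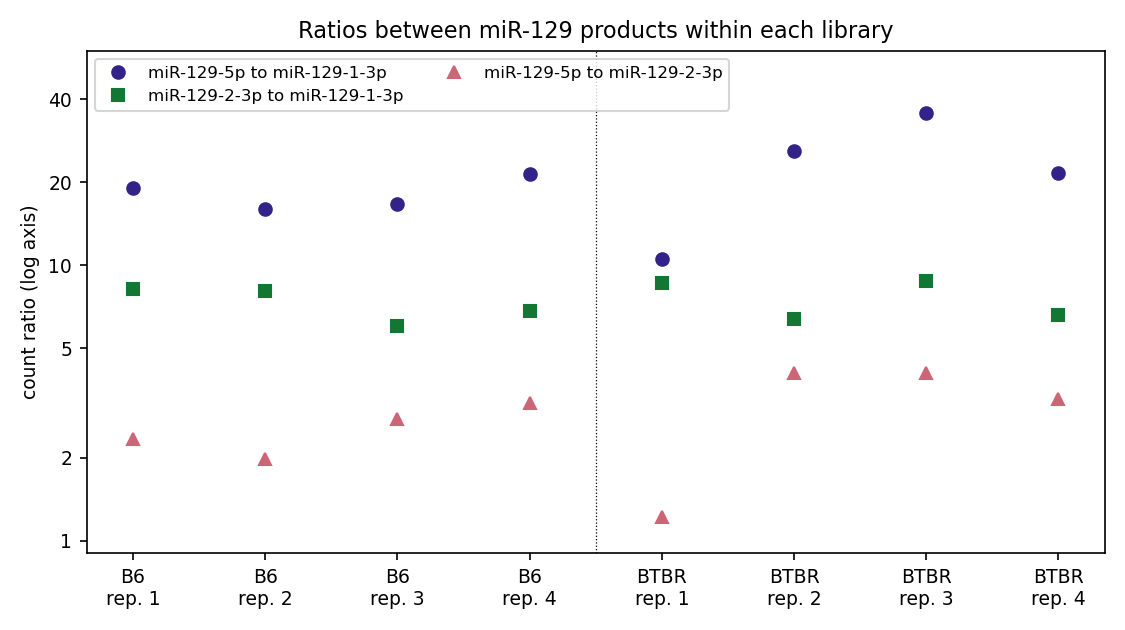
Count ratios between the miR-129 products in each of the 8 libraries, on a log axis, with B6 left and BTBR right of the dotted line. The ratio of miR-129-2-3p to miR-129-1-3p (squares) stays between 6.02 and 8.79, while miR-129-5p to miR-129-2-3p (triangles) runs from 1.22 in BTBR replicate 1 to 4.07 in BTBR replicate 3.

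The B6 mice held miR-128-3p, the restrainer of excitability, at 16954, 14882, 19066 and 17762 CPM, and the BTBR mice at 26979.8, 15493, 22810.0 and 16973 CPM. BTBR replicates 1 and 3 were above every B6 mouse, and replicates 2 and 4 lay within the B6 range. B6 averaged 17166 ± 1754 CPM and BTBR 20564 ± 5317 CPM (SD, n = 4 each). The log2 fold change was 0.26 (standard error 0.20, 95% interval −0.18 to 0.71, adjusted p = 0.690, edgeR, Benjamini-Hochberg), and the exact permutation test gave p = 0.314. Without BTBR replicate 1 the log2 fold change was 0.10.

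The 5p arms of miR-128 differ in sequence, so their reads can be told apart by hairpin. Whether their ratio gives the share of miR-128-3p made by each hairpin was not tested. miR-128-2-5p had only 20 to 83 counts per library.
miR-128-1-5p: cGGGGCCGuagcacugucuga
miR-128-2-5p: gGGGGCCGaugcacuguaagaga
Both share the seed GGGGCCG. miR-128-3p outnumbered the sum of its 5p arms by 102 to 193 times in B6 and by 114 to 169 times in BTBR mice (mean log2 difference 0.22, exact permutation test, p = 0.429, and 0.867 adjusted over 7 ratios). The arm from Mir128-1 had the higher count in every library. It was counted 17.2, 12.6, 10.2 and 21.4 times as often as the arm from Mir128-2 in B6 and 11.7, 1.83, 29.1 and 15.7 times as often in BTBR mice. BTBR replicate 2 stood apart from the other 7 libraries, with miR-128-1-5p at 61.5 CPM, the lowest of the 8, and miR-128-2-5p at 33.7 CPM, the highest. This library was also the shallowest, and its miR-128-2-5p level rests on 75 counts. The strains did not separate in the ratio of the 5p arms (exact permutation test on log2 ratios, p = 0.714, and 0.867 adjusted over 7 ratios), where the mean log2 difference of BTBR from B6 was −0.57, and 0.24 without BTBR replicate 2.

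The B6 mice held miR-137-3p at 208, 215, 244 and 326 CPM, and the BTBR mice at 212, 509, 322 and 297 CPM. BTBR replicate 2 was the highest of the 8, while BTBR replicate 1 lay among the low B6 mice. B6 averaged 248 ± 54.5 CPM and BTBR 335 ± 125 CPM. Its log2 fold change of 0.43 was the largest among the members (standard error 0.28, 95% interval −0.17 to 1.04, adjusted p = 0.617, edgeR, Benjamini-Hochberg). Without BTBR replicate 2 it was 0.13, and without BTBR replicate 1 it was 0.60. The other arm, miR-137-5p, had between 5 and 32 counts per library and a fitted log2 fold change of −0.59 (standard error 0.47). The arms thus had fitted values of opposite sign, and miR-137-3p was counted 33.8 to 90.8 times as often as miR-137-5p in B6 and 60.7 to 227 times as often in BTBR mice. The mean log2 ratio was 0.96 higher in BTBR mice, with overlap between the strains (exact permutation test, p = 0.171, and 0.867 adjusted over 7 ratios).

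The B6 mice held miR-153-3p at 756, 1241, 864 and 1181 CPM, and the BTBR mice at 881, 1256, 1319 and 1206 CPM. In B6, replicates 1 and 3 were low and replicates 2 and 4 high, while in BTBR replicate 1 was low and the 3 others lay near the highest B6 mice, so that the ranges overlapped. B6 averaged 1010.3 ± 237 CPM and BTBR 1165 ± 195 CPM, and the log2 fold change was 0.21 (standard error 0.22, 95% interval −0.28 to 0.69, adjusted p = 0.774, edgeR, Benjamini-Hochberg). The exact permutation test gave p = 0.229. Leaving out B6 replicate 1 gave a fitted value of 0.021, leaving out B6 replicate 3 gave 0.083, and the other 6 mice gave between 0.13 and 0.35. Its other arm, miR-153-5p, had 26 to 102 counts per library and a log2 fold change of 0.22 (standard error 0.34), close to that of the 3p arm. The ratio of miR-153-3p to miR-153-5p lay between 50.4 and 111 in B6 and between 52.6 and 108 in BTBR mice, with a mean log2 difference of 0.04 (exact permutation test, p = 0.914, also after adjustment over 7 ratios).

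**Figure D3:**
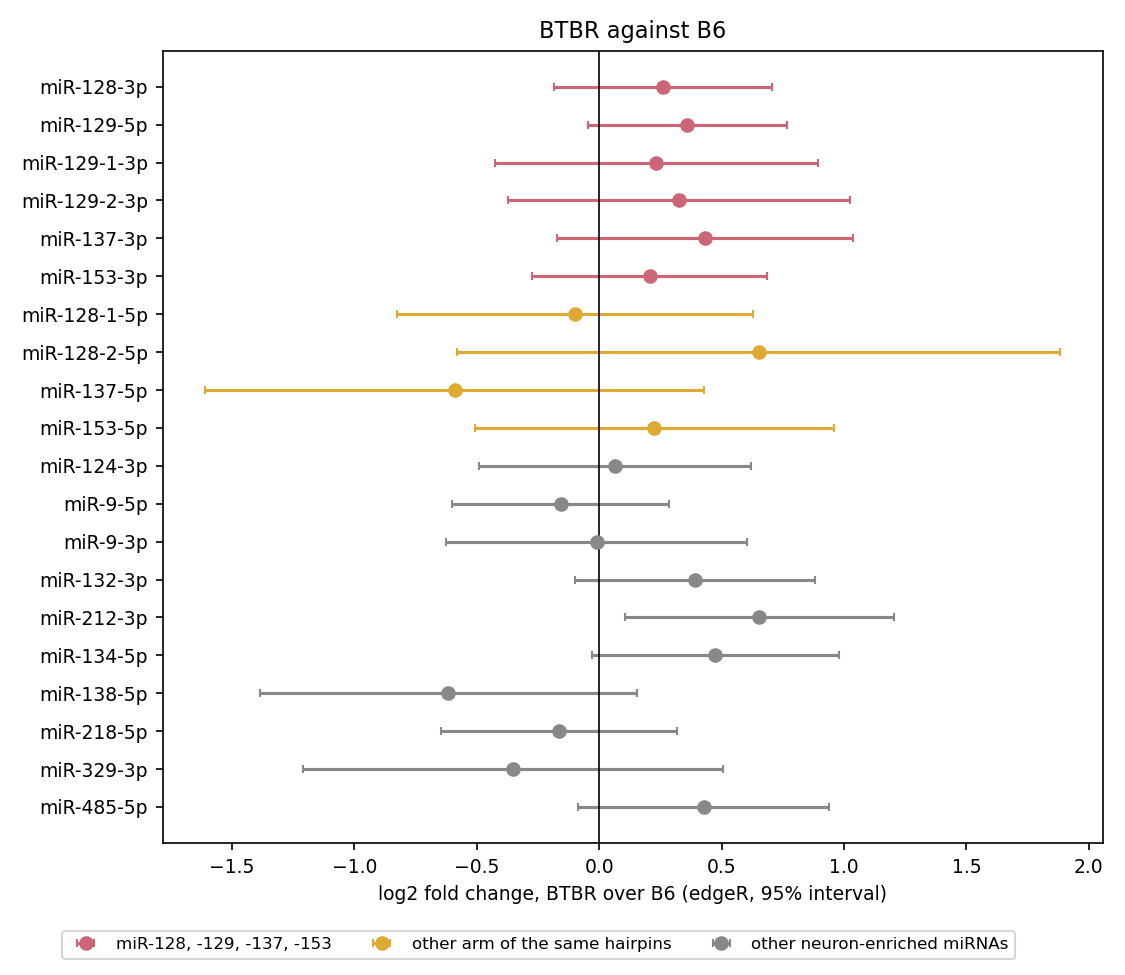
Log2 fold change of BTBR over B6 from edgeR with its 95% interval, for the 6 members (red), the 4 other arms of their hairpins (yellow) and 10 other neuron-enriched miRNAs (grey). All 6 members lie between 0.21 and 0.43 with intervals that include 0; among the others the interval of miR-212-3p alone lies above 0, before adjustment.

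Of the 4 other arms of the hairpins, 2 (miR-128-2-5p at 0.65 and miR-153-5p at 0.22) had a fitted log2 fold change above 0 and 2 (miR-128-1-5p at −0.10 and miR-137-5p at −0.59) below 0, and none passed the threshold (adjusted p between 0.696 and 0.944, edgeR, Benjamini-Hochberg). A list of 10 other miRNAs enriched in neurons was set beside the members. Of these, 0 passed the threshold in either direction, 5 lay above 0, and the median log2 fold change was 0.03, against 0.29 in the members and 0.02 in all miRNAs. Before adjustment, 1 of the 10 had an edgeR p under 0.05, a share near the 10.9% of all miRNAs. It was miR-212-3p (log2 fold change 0.65, standard error 0.25, adjusted p = 0.345, edgeR, Benjamini-Hochberg), which is induced by neuronal activity together with miR-132-3p (log2 fold change 0.39, standard error 0.22). miR-124-3p, the classic marker of neuronal identity, had 1470.1 ± 256 CPM in B6 against 1538 ± 516 CPM in BTBR. miR-9-5p, which is shared by neurons and neural progenitors, had 44004 ± 10970.5 CPM and 39458 ± 4259.5 CPM. miR-138-5p, a regulator of dendritic spine size, had the lowest value of the list, a log2 fold change of −0.62 (standard error 0.35). All 10 were found in every library, the lowest with 20 counts, and they did not have a common direction.

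Members differed in how steady they were between mice of a strain. In B6 the SD of log2(CPM + 0.5) was 0.15 for miR-128-3p, 0.16 for miR-129-1-3p, 0.19 for miR-129-2-3p, 0.25 for miR-129-5p, 0.30 for miR-137-3p and 0.35 for miR-153-3p, where the median of all miRNAs was 0.33. In BTBR mice the order was another. miR-129-5p had the smallest SD, 0.16, at percentile 6.16 of all miRNAs, followed by miR-153-3p with 0.26, miR-128-3p with 0.37, miR-137-3p with 0.52, miR-129-1-3p with 0.63 and miR-129-2-3p with 0.70, where the median of all miRNAs was 0.48. With library size only, the SD of miR-129-5p in B6 was 0.072 instead of 0.25, the smallest of the 6 and below its BTBR value of 0.17, so which strain was the steadier for miR-129-5p turned with the scaling. On that scale the SD in B6 was 0.50 for miR-153-3p, 0.29 for miR-129-2-3p and 0.093 for miR-128-3p. Under both scalings, arms of the same hairpin, miR-129-5p and miR-129-2-3p, marked the lower and the upper end of the members in BTBR mice.

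**Figure D4:**
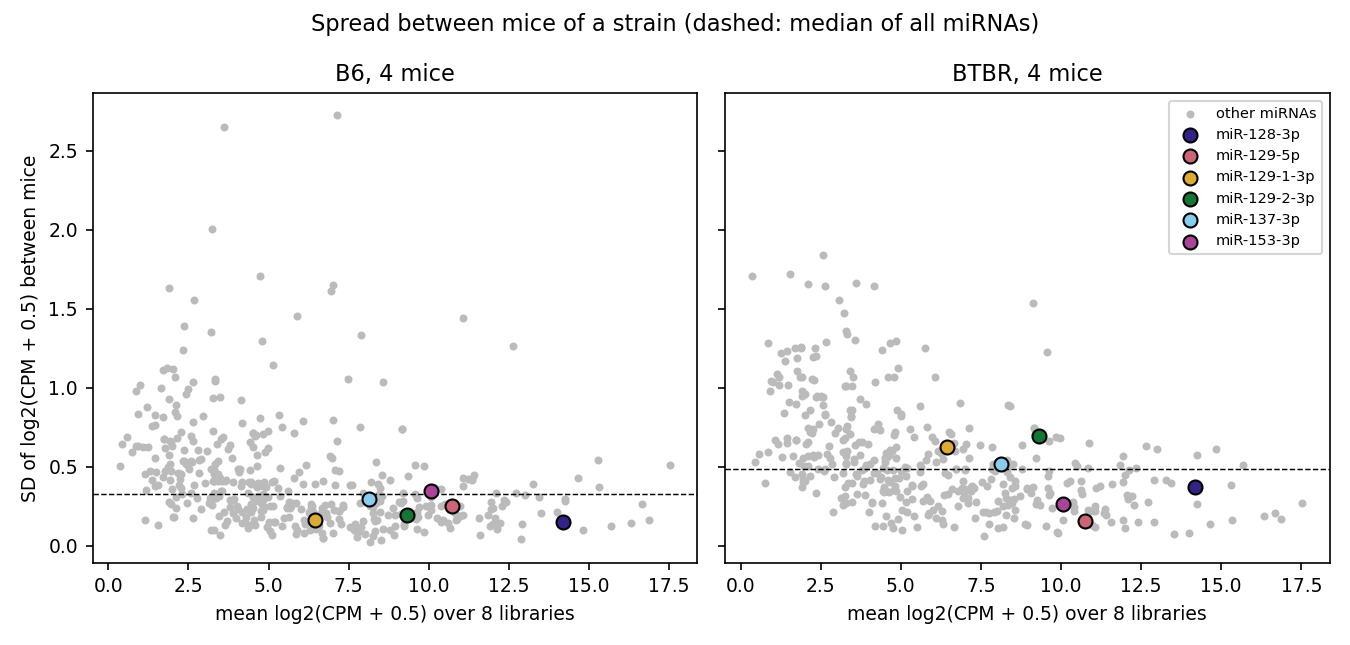
SD of log2(CPM + 0.5) between the 4 mice of each strain against the mean log2 level over 8 libraries, for all 422 miRNAs (grey) and the 6 members (coloured); the dashed line is the median SD, 0.33 in B6 and 0.48 in BTBR. In BTBR mice miR-129-5p (0.16) lies near the bottom and miR-129-2-3p (0.70) above the median, while both lie below the median in B6. With library size only, miR-129-5p would lie at 0.072 in B6.

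The profiles of the members over the 8 libraries did not form 1 pattern. The correlations that follow are descriptions over 8 libraries that differ in strain and depth. miR-129-5p had Pearson's r = 0.72 and Spearman's rho = 0.48 with miR-137-3p, and r = 0.54 without the 2 mice farthest from the median of miR-129-5p. With miR-153-3p it had r = 0.18 and rho = 0.50, and r = 0.73 without those mice, so which member it was most like depended on the measure. With miR-129-2-3p from the same hairpin it had r = −0.11 and rho = −0.31. miR-129-2-3p and miR-129-1-3p had r = 0.90 and rho = 0.67, but r = 0.22 without the 2 farthest mice, so that their likeness rests on those mice. miR-137-3p and miR-153-3p had r = 0.64 and rho = 0.67, and r = 0.58 without the 2 farthest mice. Values below 0 were found for miR-129-2-3p with miR-137-3p (r = −0.53, rho = −0.86, and r = −0.46 without the 2 farthest mice) and for miR-129-1-3p with miR-153-3p (r = −0.61, rho = −0.79, and r = −0.61).

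Outside the members, the miRNA with the highest r to miR-128-3p was miR-132-3p (r = 0.89, rho = 0.74, and r = 0.66 without the 2 farthest mice), a regulator of dendrite growth. For miR-137-3p it was miR-106b-3p (r = 0.94, rho = 0.88, and 0.80), and for miR-153-3p it was miR-146b-5p, which put the 8 mice in the same order (r = 0.90, rho = 1, and 0.78). miR-129-5p was most like miR-379-5p, of the imprinted Dlk1-Dio3 locus (r = 0.88, rho = 0.64, and 0.42). Both miR-129 3p products were most like miR-582-5p (r = 0.91 for miR-129-1-3p, with 0.27 without the 2 farthest mice, and r = 0.79 for miR-129-2-3p, with 0.84). The next in r were miR-486a-3p (0.81) and miR-299a-3p (0.79) for miR-128-3p, and miR-497a-5p (0.85) and miR-212-3p (0.82) for miR-129-5p. They were miR-92a-1-5p (0.85) and miR-299a-5p (0.82) for miR-129-1-3p, and miR-154-3p (0.75) and miR-342-5p (0.73) for miR-129-2-3p. For miR-137-3p they were miR-1948-3p (0.92) and miR-148b-3p (0.91), and for miR-153-3p miR-673-3p (0.86) and miR-192-5p (0.85). Without the 2 farthest mice, r was 0.18 for miR-486a-3p and −0.12 for miR-154-3p. These names were chosen for their r among all other miRNAs, and no test was made of them.

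None of the seed relatives named above passed the threshold. miR-448-3p, the seed neighbour of miR-153-3p, is made in choroid plexus, and stood at 254, 53.7, 11.9 and 3.15 CPM in the B6 mice, against 8.43, 0.45, 10.8 and 7.58 CPM in BTBR. B6 replicates 1 and 2 were high, B6 replicate 4 lay within the BTBR range and B6 replicate 3 just above it, so the strains overlapped (log2 fold change −3.51, standard error 1.11, adjusted p = 0.239, edgeR, Benjamini-Hochberg). miR-27b-3p, with 3387 ± 172 CPM in B6 against 2931 ± 714 CPM in BTBR, was the more abundant of the miR-27 pair (log2 fold change −0.21, standard error 0.20), and miR-27a-3p had a log2 fold change of 0.31 (standard error 0.37).

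Markers of other cells in the hippocampal dissection were summed in CPM beside these results. Choroid plexus miRNAs (4 of 6 listed were measured) summed to between 4199 and 30086 CPM in B6 and between 2753 and 7777 CPM in BTBR mice, with the lowest sum in BTBR replicate 1, the library with the highest miR-128-3p and miR-129 3p levels. The highest choroid plexus sum was that of B6 replicate 1, the library with the lowest miR-137-3p (208 CPM) and miR-153-3p (756 CPM), and the highest within BTBR was that of replicate 2. miR-204-5p made up most of each of these sums (2650.4 CPM in BTBR replicate 1 and 7739 CPM in BTBR replicate 2). In B6 it fell in order from replicate 1 to replicate 4 (26966 to 4157 CPM). So did miR-1298-5p (2863 to 37.3 CPM) and miR-448-3p (254 to 3.15 CPM), while miR-211-5p was highest in B6 replicate 2 (10.7 CPM). Within BTBR, miR-211-5p was lowest in replicate 1 (2.88 CPM), as miR-204-5p was, but highest in replicate 3 (15.0 CPM). In the BTBR mice, miR-1298-5p and miR-448-3p did not follow miR-204-5p. miR-1298-5p was at 90.9 CPM in BTBR replicate 1, the highest of that strain, and at 31.0 CPM in BTBR replicate 2, the lowest of the 8, as was miR-448-3p. Microglial and leukocyte miRNAs (3 of 4) summed to 589 to 735 CPM in B6 and 509 to 1076 CPM in BTBR mice, and endothelial miRNAs (2 of 2) to 2719 to 3365 CPM and 1739.6 to 3182 CPM. BTBR replicate 2, with the highest miR-137-3p, held the highest microglial and the lowest endothelial sum, and also the highest red blood cell and the lowest mural sum of the 8. Both endothelial miRNAs were lowest there, but the other sums were mostly those of miR-146a-5p, miR-486a-5p and miR-143-3p. The less abundant markers went both ways in that library. Of the microglial and leukocyte miRNAs, miR-142a-5p was at 30.1 CPM, the lowest of the 8, and miR-142a-3p at 11.7 CPM, the highest. Among red blood cell miRNAs, miR-144-3p was at 9.88 CPM, the lowest of the BTBR mice. By contrast, miR-451a at 94.7 CPM and miR-144-5p at 54.3 CPM were each the highest of the 8. The mural miR-145a-5p was at 301 CPM, also the highest of the 8. Red blood cell miRNAs (4 of 4) summed to 303 to 853 CPM in B6 and 531 to 1371 CPM in BTBR mice, and 1 of them, miR-451a, passed the threshold. Oligodendrocyte miRNAs (3 of 3) summed to 2238 to 4256 CPM in B6 and 2289 to 2922 CPM in BTBR mice, and mural cell miRNAs (2 of 3) to 6139.7 to 10167 CPM and 5092 to 7707 CPM. No measured marker was at 0 in any library, and the part of these cells in the levels of the members was not tested.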

How the data were processed

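Small RNA libraries (Illumina TruSeq) were made from single mice. The authors removed adapters, checked reads with FastQC 0.11.2, mapped them to GRCm38 with sRNAbench (Bowtie), assigned reads lying within miRBase v21 annotations, and deposited whole-number counts for 422 miRNAs in 8 libraries, without normalization (tools per the methods and the submitters' processing notes). Reads carry no molecular identifiers, so tests cover the spread between mice and not amplification.

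Counts were TMM-normalized and compared with edgeR 4.0.16 (quasi-likelihood test, no covariates, Benjamini-Hochberg over 422 miRNAs, threshold 0.1, no filter), in R 4.3.3 with limma 3.58.1 and DESeq2 1.42.0 for alternatives. Each standard error is the absolute fitted change divided by the square root of F. Exact permutation tests (scipy 1.17.1) covered the 70 assignments of mice, on log2(CPM + 0.5) or on log2 count ratios with 0.5 added. All 12 pairs of libraries within a strain differed beyond sampling noise. Sequences are from RefSeq and annotations from GENCODE vM21. Named are the members, the other arms, the listed neuronal miRNAs, seed relatives (the miR-27 pair added after the sequences were seen) and the 3 miRNAs most like each member by Pearson's r. Members and lists were chosen with earlier results of these data known.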

Additional observations from a re-analysis of the deposited data

Results flagged for a closer look

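Dixon's test of a single mouse far from the 3 others of its strain was applied to 34 sets of 4 values, the levels of the members and of the other arms and the 7 ratios in each strain, and marked 3 of them, where chance alone marks about 1 in 20. miR-129-2-3p in BTBR replicate 1 had 1401 CPM, and the next BTBR mouse had 578 CPM. miR-128-1-5p in BTBR replicate 2 had 61.5 CPM, and the next lowest BTBR mouse had 139 CPM. miR-128-2-5p in B6 replicate 3 had 16.8 CPM, and the next B6 mouse had 7.48 CPM.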

How the results depend on the processing

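No member passed the threshold under any of the 19 alternatives to the test, and the lowest adjusted p was 0.215, for miR-129-5p with library sizes only. Over the 6 members, log2 fold changes kept their sign in 112 of 114 values under these alternatives (the stricter threshold, counted among them, leaves the fold changes as they are), and the other 2 were miR-129-1-3p and miR-129-2-3p without BTBR replicate 1. The count of all miRNAs past the threshold moved from 7 to 4 with library size only, 21 with the DESeq2 Wald test, 16 with the edgeR exact test and 4 at a threshold of 0.05, and ranged from 3 to 13 when mice were left out singly. It was 13 when B6 replicate 2 was left out, 4 when BTBR replicate 1 was, and 3 when either BTBR replicate 3 or BTBR replicate 4 was. With a replicate block (the replicate number as a term) the count was 3, the members had log2 fold changes between 0.14 and 0.38, and their lowest adjusted p was 0.747. Mice with the same number did not deviate together (r between −0.15 and 0.05), and the labels give no shared litter or day, so the number is not a pairing.

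With each mouse left out, log2 fold changes ranged from 0.10 to 0.35 for miR-128-3p, from 0.27 to 0.42 for miR-129-5p, from −0.12 to 0.43 for miR-129-1-3p, from −0.16 to 0.48 for miR-129-2-3p, from 0.13 to 0.60 for miR-137-3p and from 0.021 to 0.35 for miR-153-3p. Mean log2 differences ranged from 0.25 to 0.43 for miR-129-5p, where 7 mice cannot give an exact permutation p below 0.0571, from −0.14 to 0.36 for miR-129-1-3p and from −0.15 to 0.35 for miR-129-2-3p. Mean log2 differences of the ratios ranged from −1.08 to 0.24 for miR-128-1-5p to miR-128-2-5p, from −0.012 to 0.58 for miR-129-5p to miR-129-1-3p, from −0.028 to 0.14 for miR-129-2-3p to miR-129-1-3p, from −0.14 to 0.24 for miR-153-3p to miR-153-5p, from 0.0043 to 0.59 for miR-129-5p to miR-129-2-3p, from 0.11 to 0.42 for miR-128-3p to its summed 5p arms and from 0.67 to 1.28 for miR-137-3p to miR-137-5p.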
